A study of Mus musculus with 24 samples.

Results

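Collagen chains and laminin chains are the building blocks of the extracellular matrix, and every protein-coding mouse gene named as a collagen alpha chain or a laminin alpha, beta or gamma chain was followed here through both count tables of the study. The name pattern selected 55 genes, 44 collagens and 11 laminins, of 21771 protein-coding genes and 57010 gene rows in all. The name rule itself uses no measured value, but the gene family was picked with earlier results of these data known. GT1-7 cells are an immortalised line of mouse hypothalamic neurons that secretes gonadotropin-releasing hormone, and Mkrn3 encodes a makorin zinc-finger protein with a RING domain.

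Collagen chains are made on the endoplasmic reticulum, hydroxylated, wound into triple helices and secreted, and each type is built from its own set of chains. Laminins are trimers of an alpha, a beta and a gamma chain, and together with type IV collagen they form the sheets of basement membranes. Fibrillar collagens build fibres, type VI collagen builds beaded filaments beside basement membranes, and cells hold on to these proteins through integrins, discoidin domain receptors and dystroglycan.

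The RNA immunoprecipitation (RIP) experiment used GT1-7 cells 24 h after transfection with 6 µg of a GFP-Mkrn3 plasmid or a GFP plasmid. Its groups were the RNA pulled down on GFP-binding beads (IP) and 5% of the lysate (input) from GFP-Mkrn3 cells, and the IP and input from GFP cells. The fractionation experiment held total RNA and cytoplasmic RNA of a GT1-7 line labelled as stably carrying GFP-Mkrn3 (Mkrn3ox), each set against the same RNA of unmodified cells (wt). Each of the 8 groups had 3 libraries made by CEL-seq2, which counts transcript 3' ends. The labels state neither that libraries of 1 group stem from separate cultures nor whether the stable line is a single clone. The p-values therefore reflect the spread among these libraries, possibly a technical spread.

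RIP libraries held 6254703 to 14575652 counts and fractionation libraries 374386 to 759271. The Mkrn3 row had 86579 to 141568 counts in GFP-Mkrn3 IPs and 28280 to 32451 in GFP-Mkrn3 inputs, against 33 to 60 in GFP IPs and 36 to 60 in GFP inputs. In the fractionation table it had 0 counts in all total RNA libraries of both lines, 1, 0 and 5 in Mkrn3ox cytoplasm and 1, 0 and 0 in wt cytoplasm, so the table gives no check of the Mkrn3ox label, and every direction between the lines below goes by that label. Gnrh1, the hormone gene that marks the line, had 1947 to 3060 counts in GFP-Mkrn3 IPs, 2292 to 2742 in GFP-Mkrn3 inputs, 449 to 717 in GFP IPs and 2357 to 2878 in GFP inputs. Markers of other cell types were partly present. Of the 10 fibroblast markers, Lum, Dpt and Tcf21 were at 0 in all 4 RIP groups, while Pdgfra averaged 112 to 234 CPM (counts divided by TMM-scaled library size) and Postn 8.60 to 9.85 CPM. Of the 10 endothelial and mural markers, Emcn, Cldn5 and Rgs5 were at 0 there, while Acta2 averaged 329.6 to 461 CPM and Kdr 202 to 412 CPM. The GT1-7 and neuron markers other than Gnrh1 were also only partly present. Snap25 was at 0 in all 4 RIP groups and Stmn2 held 0 to 2 counts per group. Elavl3 averaged 0.169 to 0.243 CPM, Tubb3 1.38 to 2.72, Syt1 3.15 to 5.17, Uchl1 3.25 to 6.28 and Syp 4.82 to 8.27. Map2 averaged 62.6 to 76.7 CPM and Eno2 98.1 to 116.

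Detection of the genes differed between the tables. In the RIP experiment 46 of the 55 genes had at least 1 count and 30 passed the filter on low counts, 24 collagens and 6 laminins. In the fractionation experiment 39 had at least 1 count and only 9 passed, 7 collagens and 2 laminins, and 8 genes passed in both. Genes that did not pass held 0 to 99 counts over the 12 RIP libraries and 0 to 68 over the 12 fractionation libraries. Of the 25 genes that did not pass in the RIP experiment 20 held 0 to 8 counts. Among these were Col3a1 and Col5a2, partners of type I collagen in fibres, Lama1 and Lama2, the alpha chains of early embryonic and of muscle laminin, and Lamc3. The other genes with at most 8 RIP counts were Lamb1, Col4a3, Col6a5, Col6a6, Col8a2, Col9a1, Col9a2, Col10a1, Col11a1, Col13a1, Col19a1, Col22a1, Col24a1, Col25a1 and Col28a1. Lama4, found in vessel laminins, had 99 RIP counts, Col6a4 75, Col14a1 58, Col23a1 51 and Col17a1 20. The membrane-spanning collagens Col13a1, Col17a1, Col23a1 and Col25a1 did not pass in either table.

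The 18 genes called in at least 1 comparison include Col4a5 and Col4a6, which lie head to head on chromosome X, and Col8a1, whose difference between the lines kept its call under every setting tried. The sequences just upstream of these 3 genes are shown because the head-to-head arrangement and the line difference return in the results. They are the 200 bases outside each gene's RefSeq span in build GRCm38.p6, 5′ to 3′ on the gene's own strand. The Col4a5 window is chrX:141475170-141475369 on the plus strand, the Col4a6 window chrX:141474096-141474295 on the minus strand and the Col8a1 window chr16:57754738-57754937 on the minus strand.
Col4a5: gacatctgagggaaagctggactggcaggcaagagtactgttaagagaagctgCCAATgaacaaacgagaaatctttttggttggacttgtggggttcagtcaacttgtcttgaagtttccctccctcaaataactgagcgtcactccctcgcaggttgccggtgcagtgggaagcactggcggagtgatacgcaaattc
Col4a6: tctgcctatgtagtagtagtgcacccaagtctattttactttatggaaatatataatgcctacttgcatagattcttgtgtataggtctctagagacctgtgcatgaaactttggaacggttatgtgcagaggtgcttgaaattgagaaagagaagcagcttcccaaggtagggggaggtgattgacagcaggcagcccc
Col8a1: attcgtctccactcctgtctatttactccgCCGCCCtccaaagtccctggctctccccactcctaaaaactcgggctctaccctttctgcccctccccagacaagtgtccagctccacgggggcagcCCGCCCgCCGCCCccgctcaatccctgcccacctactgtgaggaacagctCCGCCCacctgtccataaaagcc
Capitals mark matches on either strand to 3 motifs. The CCAAT box was searched by those letters. The GC box, known as a site of Sp factors, was searched as GGGCGG. The TATA box, the core promoter element, was searched as TATAAA. No motif match overlaps another in these windows. The Col4a5 window holds 1 CCAAT box, the Col8a1 window holds 4 GC boxes, all in the letters CCGCCC of the opposite strand, and the Col4a6 window holds none of the 3 motifs. GC content is 50.0% for Col4a5, 44.0% for Col4a6 and 62.5% for Col8a1. Of 21982 windows of the same length 30.4% hold a CCAAT box, 27.4% a GC box and 11.6% a TATA box. Of the 22 windows of collagen and laminin genes that could be read this way, 6 (27.3%) hold a CCAAT box, 12 (54.5%) a GC box and 3 (13.6%) a TATA box. A match is only a run of letters and was not tested as a binding site.

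The pull-downs were set against their inputs, and the GFP pull-down served as the comparison for GFP-Mkrn3. Levels were TMM-scaled, so a gene called higher with a protein held a larger share of that IP than of its input. Binding to either protein was not tested. With GFP-Mkrn3, 7 of the 30 tested genes were higher in the IP than in its input and none lower. These are 23.3% of the tested genes, against 13.9% of all genes called higher, 12.8% lower and 26.7% in either direction. With GFP alone, 17 of the 30 were higher in the IP and none lower, which is 56.7%, against 25.1% of all genes called higher, 25.2% lower and 50.3% in either direction. Of these genes 6 were called higher with both proteins, 1, Col20a1, with GFP-Mkrn3 but not GFP, and 11 with GFP but not GFP-Mkrn3. The median log2 ratio of IP to input over the 30 was 0.28 with GFP-Mkrn3 and 0.70 with GFP, beside 0.03 with GFP-Mkrn3 and −0.0045 with GFP over all tested genes. The summed level of the 55 genes was 4672 to 5695 CPM in GFP-Mkrn3 IPs and 3900 to 4163 in GFP-Mkrn3 inputs, and 7367 to 8615 in GFP IPs and 3979 to 4396 in GFP inputs.

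The difference between the 2 ratios, the enrichment beyond GFP, was tested in the same fit. It was below 0 for 8 of the 30 genes and above 0 for none, which is 26.7%, against 11.1% of all genes called lower, 13.2% higher and 24.3% in either direction. Of the 8, 4 had been higher in the GFP-Mkrn3 IP than in its input and all 8 in the GFP IP. The median difference over the 30 was −0.43, beside 0.04 over all tested genes. This comparison uses the same 12 libraries as the ratios, so it is not separate evidence.

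**Figure D1:**
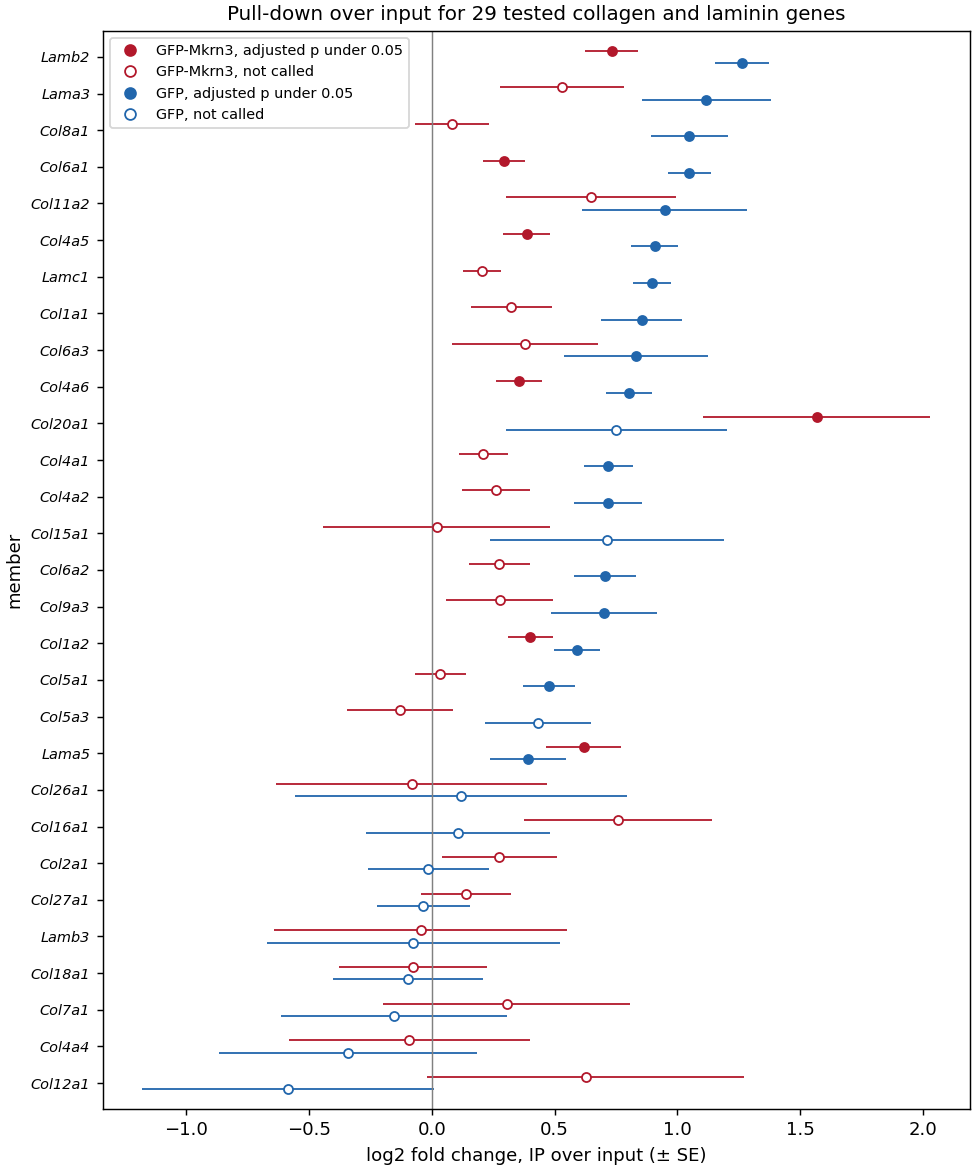
Log2 ratio of IP to input (x axis, ± SE) for 29 of the 30 tested genes (y axis), red for GFP-Mkrn3 and blue for GFP, filled where the adjusted p was under 0.05. For 16 of the 17 genes called with GFP the blue point lies to the right of the red; the exception is Lama5, at 0.62 with GFP-Mkrn3 and 0.39 with GFP.

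Laminin chains gave some of the largest ratios. Lamb2, the beta chain of synaptic and kidney basement membranes, stood at 1191, 1416 and 978 CPM in GFP-Mkrn3 IPs and 725, 697 and 737 CPM in GFP-Mkrn3 inputs. It stood at 2003, 1679 and 1651 CPM in GFP IPs and 711, 771 and 739 CPM in GFP inputs. Every IP library lay above every input library, and the GFP IPs lay above the GFP-Mkrn3 IPs. The log2 ratio was 0.73 with GFP-Mkrn3 (SE 0.108, adjusted p = 0.000114) and 1.26 with GFP (SE 0.11, adjusted p = 3.25e-08), and the difference was −0.53 (SE 0.153, adjusted p = 0.0167). Lamc1, the gamma chain shared by most laminins, had 994, 1119 and 1019 CPM in GFP-Mkrn3 IPs and 877, 895 and 949 in GFP-Mkrn3 inputs. In GFP cells it had 1657, 1593 and 1479 CPM in IPs and 865, 847 and 829 in inputs. The groups did not overlap with either protein, but only the GFP ratio passed the test. The GFP-Mkrn3 ratio was 0.20 (adjusted p = 0.0563), the GFP ratio 0.90 (SE 0.0774, adjusted p = 3.06e-08) and the difference was −0.69 (SE 0.109, adjusted p = 0.000279).

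Lama5, the alpha chain of most adult basement membranes, was the only one of the 17 genes called with GFP whose GFP-Mkrn3 ratio was the higher of the pair. It had 35.1, 43.4 and 27.2 CPM in GFP-Mkrn3 IPs and 24.3, 22.1 and 22.8 in GFP-Mkrn3 inputs, and 38.2, 33.2 and 31.9 in GFP IPs and 23.5, 26.4 and 28.8 in GFP inputs. Both IPs lay above their inputs without overlap. The ratios were 0.62 with GFP-Mkrn3 (adjusted p = 0.00576) and 0.39 with GFP (adjusted p = 0.0416), and the difference, 0.23, did not pass. Lama3, an alpha chain of epithelial laminin, had 13.9, 13.0 and 11.5 CPM in GFP-Mkrn3 IPs and 11.4, 7.38 and 7.82 in GFP-Mkrn3 inputs. In GFP cells it had 14.8, 14.3 and 14.2 CPM in IPs and 3.44, 6.24 and 9.93 in inputs, where only the GFP ratio, 1.12, was called (adjusted p = 0.00162). Lamb3, a beta chain of epithelial laminin, was not called, with ratios of −0.04 with GFP-Mkrn3 and −0.08 with GFP.

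**Figure D2:**
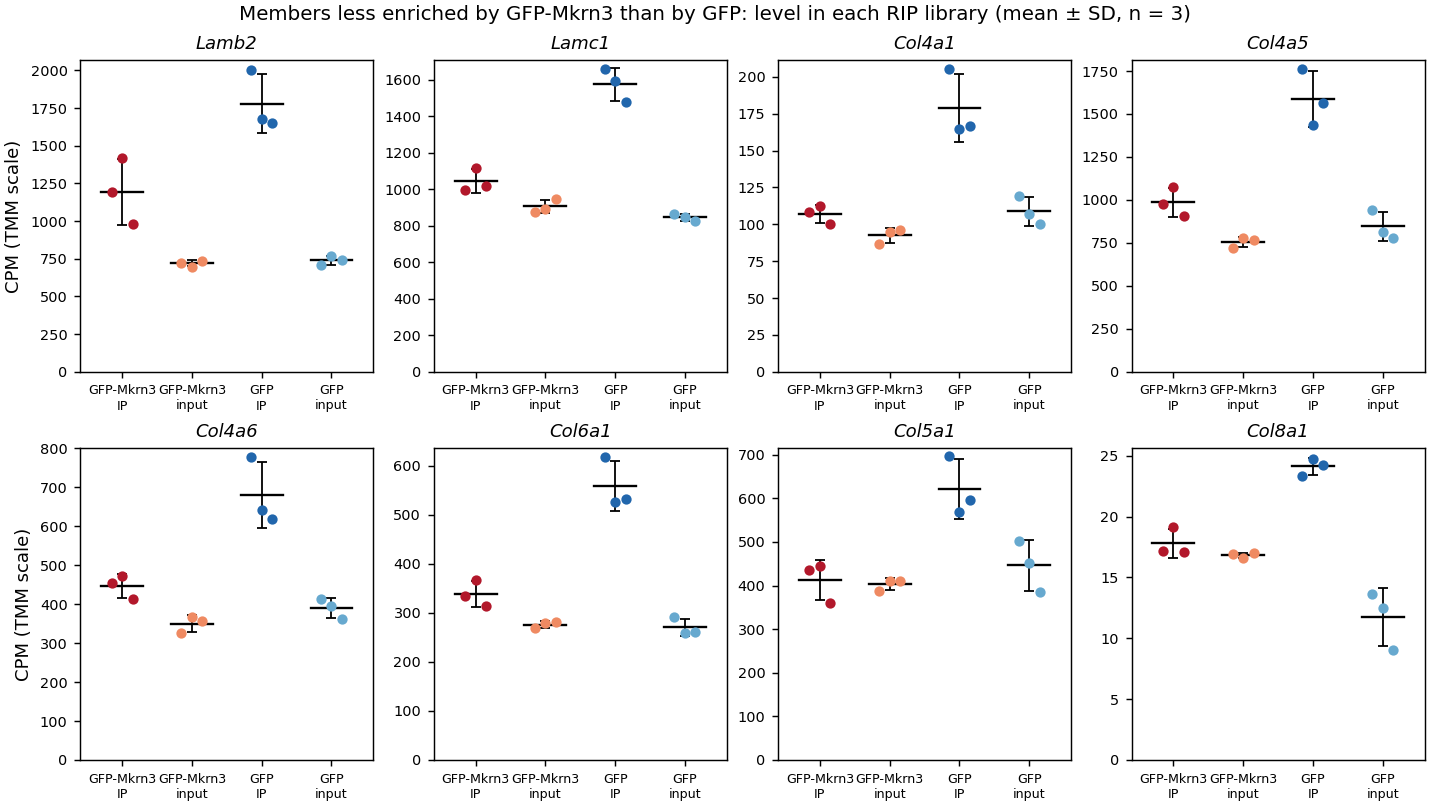
Level in CPM (y axis) in each of the 12 RIP libraries for the 8 genes whose enrichment by GFP-Mkrn3 was below that by GFP; bars give mean ± SD, n = 3. For Lamb2 the GFP-Mkrn3 IPs lie at 978 to 1416 CPM and the GFP IPs at 1651 to 2003.

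Of type IV collagen, the network of basement membranes, 2 of 5 tested chains were higher in the GFP-Mkrn3 IP and 4 in the GFP IP. Col4a5 and Col4a6, which assemble together, are read in opposite directions from starts 1275 bases apart (chromosome X, 141475370 to 141689236 and 141165403 to 141474095). Col4a5 had 979, 1073 and 907 CPM in GFP-Mkrn3 IPs and 721, 778 and 767 in GFP-Mkrn3 inputs, and 1761, 1436 and 1563 in GFP IPs and 942, 816 and 780 in GFP inputs. Col4a6 had 456, 472 and 414 CPM in GFP-Mkrn3 IPs and 325, 368 and 356 in GFP-Mkrn3 inputs, and 778, 643 and 620 in GFP IPs and 414, 395 and 363 in GFP inputs. For both genes each set of IPs lay above its inputs without overlap. The Col4a5 ratios were 0.39 with GFP-Mkrn3 (adjusted p = 0.00535) and 0.91 with GFP (adjusted p = 3.08e-07), a difference of −0.52 (SE 0.133, adjusted p = 0.00821). The Col4a6 ratios were 0.36 (adjusted p = 0.00879) and 0.80 (adjusted p = 1.3e-06) for the same plasmids, a difference of −0.45 (SE 0.132, adjusted p = 0.0199).

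Col4a1 and Col4a2, the chains present in nearly all basement membranes, overlap at their starts on opposite strands. Col4a1 had 108, 112 and 100 CPM in GFP-Mkrn3 IPs and 86.9, 94.7 and 95.8 in GFP-Mkrn3 inputs, and 205, 164 and 167 in GFP IPs and 119, 107 and 99.9 in GFP inputs. Neither pair of groups overlapped. Its ratio was 0.21 with GFP-Mkrn3, not called, and 0.72 with GFP (adjusted p = 9.82e-06), and the difference was −0.51 (SE 0.142, adjusted p = 0.0142). Col4a2 had 107, 111 and 86.1 CPM in GFP-Mkrn3 IPs and 75.9, 86.5 and 91.8 in GFP-Mkrn3 inputs, which overlap, and 184, 150 and 150 in GFP IPs and 124, 90.8 and 81.5 in GFP inputs, which do not. Its GFP ratio was 0.72 (adjusted p = 0.000279), and the difference of −0.45 was not called (adjusted p = 0.098). The shared stretch lies at the starts of the pair, while these libraries count transcript 3' ends, and its part in the counts was not tested.

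Type VI collagen is built mainly from Col6a1, Col6a2 and Col6a3, and all 3 were higher in the GFP IP. Col6a1 had 333, 368 and 314 CPM in GFP-Mkrn3 IPs and 268, 279 and 280 in GFP-Mkrn3 inputs, and 617, 526 and 531 in GFP IPs and 291, 260 and 260 in GFP inputs. Its ratios were 0.29 with GFP-Mkrn3 (adjusted p = 0.0168) and 1.05 with GFP (adjusted p = 2e-08), a difference of −0.75 (SE 0.123, adjusted p = 0.000376). Col6a2 had 116, 139 and 90.2 CPM in GFP-Mkrn3 IPs and 86.2, 96.8 and 103 in GFP-Mkrn3 inputs, and 168, 141 and 151 in GFP IPs and 88.4, 97.3 and 96.2 in GFP inputs. Only its GFP groups were free of overlap, and the GFP ratio was 0.71 (adjusted p = 0.000119). Col6a3 had 3.46, 4.61 and 3.59 CPM in GFP-Mkrn3 IPs and 3.30, 2.37 and 3.34 in GFP-Mkrn3 inputs, a ratio of 0.38 that was not called. In GFP cells it had 8.22, 5.40 and 4.41 CPM in IPs and 3.16, 3.93 and 3.09 in inputs, without overlap (0.83, adjusted p = 0.0239).

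Among the fibrillar collagens 1 of 7 tested was higher in the GFP-Mkrn3 IP and 4 in the GFP IP. Col1a2, a chain of type I collagen, was called with both proteins. It had 214, 210 and 194 CPM in GFP-Mkrn3 IPs and 148, 151 and 168 in GFP-Mkrn3 inputs, and 257, 215 and 223 in GFP IPs and 162, 162 and 138 in GFP inputs. Its ratios were 0.40 (adjusted p = 0.00392) with GFP-Mkrn3 and 0.59 (adjusted p = 3.85e-05) with GFP. Col1a1, the other type I chain, had 37.1, 36.9 and 32.5 CPM in GFP-Mkrn3 IPs and 24.1, 29.3 and 31.8 in GFP-Mkrn3 inputs, and 57.4, 45.4 and 49.5 in GFP IPs and 20.1, 35.4 and 28.3 in GFP inputs. Only its GFP ratio, 0.85, was called (adjusted p = 0.000295). Col5a1, which sets the diameter of type I fibrils, had 435, 444 and 361 CPM in GFP-Mkrn3 IPs and 388, 411 and 411 in GFP-Mkrn3 inputs, and 698, 568 and 596 in GFP IPs and 502, 451 and 386 in GFP inputs. The GFP-Mkrn3 groups overlapped and gave a ratio of 0.03, the GFP groups did not and gave 0.48 (adjusted p = 0.00091), and the difference was −0.44 (SE 0.148, adjusted p = 0.0359). Col11a2, a cartilage fibril chain, had 3.64, 3.33 and 2.25 CPM in GFP-Mkrn3 IPs and 1.52, 1.71 and 2.65 in GFP-Mkrn3 inputs, which overlap. In GFP cells it had 6.04, 3.56 and 5.43 CPM in IPs and 3.16, 2.66 and 1.99 in inputs, without overlap (0.95, adjusted p = 0.0243).

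Col8a1, a short-chain network collagen, had the largest difference between the proteins among the 8 genes called. It had 17.2, 19.1 and 17.1 CPM in GFP-Mkrn3 IPs and 16.9, 16.6 and 17 in GFP-Mkrn3 inputs, and 23.4, 24.8 and 24.3 in GFP IPs and 13.6, 12.5 and 9.04 in GFP inputs. The GFP-Mkrn3 IPs lay just above their inputs and the GFP IPs far above theirs. The GFP-Mkrn3 ratio was 0.08, not called, the GFP ratio 1.05 (adjusted p = 2.24e-05) and the difference −0.97 (SE 0.219, adjusted p = 0.00384). Its GFP-Mkrn3 inputs also lay above its GFP inputs without overlap (log2 difference 0.53, adjusted p = 0.71). Col9a3, a cartilage fibril-associated chain, had 6, 5.57 and 6.63 CPM in GFP-Mkrn3 IPs and 5.84, 5.01 and 4.14 in GFP-Mkrn3 inputs, which overlap. In GFP cells it had 8.99, 9.57 and 7.80 CPM in IPs and 6.17, 5.20 and 4.96 in inputs, without overlap (0.70, adjusted p = 0.0117). Col20a1, another fibril-associated collagen, had 2.36, 3.46 and 2.58 CPM in GFP-Mkrn3 IPs and 0.762, 0.659 and 1.38 in GFP-Mkrn3 inputs (1.57, SE 0.463, adjusted p = 0.017). Its GFP groups overlapped, with 4.24, 1.72 and 1.87 CPM in IPs and 2.01, 1.73 and 0.993 in inputs (0.75, not called). The difference between the ratios of Col20a1, 0.82, was not called (SE 0.651, adjusted p = 0.395).

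Further genes with a mean of at least 20 RIP counts were not called in any RIP comparison. Col2a1, the cartilage fibril chain, had 12.3, 14.3 and 10.8 CPM in GFP-Mkrn3 IPs and 9.02, 10.4 and 11.6 in GFP-Mkrn3 inputs, and 12.6, 8.46 and 7.80 in GFP IPs and 12.8, 10.5 and 6.29 in GFP inputs. Col27a1 had 18.4, 17.5 and 16.3 CPM in GFP-Mkrn3 IPs and 15.2, 14.5 and 17.6 in GFP-Mkrn3 inputs, and 18.5, 14.0 and 10.9 in GFP IPs and 11.9, 16.2 and 16.4 in GFP inputs. Neither gene was higher in every IP library than in every input library. Col5a3 had 8.64, 6.47 and 7.41 CPM in GFP-Mkrn3 IPs and 8.76, 7.38 and 8.40 in GFP-Mkrn3 inputs, and 14.0, 9.69 and 8.82 in GFP IPs and 8.75, 8.90 and 6.62 in GFP inputs. Col18a1, whose end is cut off as endostatin, had 5, 3.20 and 2.70 CPM in GFP-Mkrn3 IPs and 3.81, 3.43 and 4.26 in GFP-Mkrn3 inputs, and 5.01, 4.66 and 3.05 in GFP IPs and 5.74, 3.58 and 4.52 in GFP inputs. In these 4 genes IP and input overlapped with either protein. Col16a1 had 2.73, 2.88 and 2.92 CPM in GFP-Mkrn3 IPs and 1.78, 2.50 and 0.805 in GFP-Mkrn3 inputs, and 3.85, 2.58 and 2.21 in GFP IPs and 2.15, 3.12 and 2.76 in GFP inputs. Its GFP-Mkrn3 IPs lay above their inputs, with a ratio of 0.76 (adjusted p = 0.151), and its GFP groups overlapped. Other uncalled genes, Col12a1, Col15a1, Col26a1, Col4a4, Col7a1 and Lamb3, had lower means.

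The inputs of the 2 plasmids were compared to see whether GFP-Mkrn3 changed the level of these transcripts in the lysate. None of the 30 genes was called by edgeR, DESeq2 called 0, and 4 (Col12a1, Col4a1, Col7a1 and Col8a1) had an unadjusted p under 0.05. Over all genes 0.0153% were called, 0.00766% higher and 0.00766% lower. Log2 differences of the 30 ran between −1.37 (Col12a1) and 0.70 (Col26a1), with a median of −0.09.

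Some markers of other cell types moved with these results and some did not. Of 3 tested fibroblast markers 1, Pdgfra, was higher in the GFP-Mkrn3 IP and in the GFP IP, and it was lower beyond GFP. Pdgfra, a receptor of fibroblasts and glial precursors, averaged 143 CPM in GFP-Mkrn3 IPs and 117 in GFP-Mkrn3 inputs, and 234 in GFP IPs and 112 in GFP inputs. Its ratios were 0.29 with GFP-Mkrn3 and 1.06 with GFP, and the difference was −0.77 (adjusted p = 0.000238). The other tested fibroblast markers, Postn and Pdgfrb, were not called, with GFP-Mkrn3 ratios of −0.05 and 0.28 and GFP ratios of 0.22 and 0.23. The summed level of the 10 fibroblast markers was 157 to 158 CPM in GFP-Mkrn3 IPs and 128 to 138 in GFP-Mkrn3 inputs, and 234 to 262 in GFP IPs and 119 to 135 in GFP inputs, most of it Pdgfra. Of 4 tested endothelial and mural markers 1 was higher and none lower with GFP-Mkrn3, 2 were higher and 1 lower with GFP, and 1 was higher and 2 lower beyond GFP. Kdr, a receptor of vessel cells, had ratios of 0.27 with GFP-Mkrn3 and 0.92 with GFP, a difference of −0.65 (adjusted p = 0.000861). Myh11, a smooth-muscle myosin, had a GFP ratio of 1.54 and a difference of −1.76. The difference of Acta2, smooth-muscle actin, was above 0. It averaged 461 CPM in GFP-Mkrn3 IPs and 398 in GFP-Mkrn3 inputs (0.22, not called), and 329.6 in GFP IPs and 408 in GFP inputs (−0.31), a difference of 0.53 (adjusted p = 0.0381). The summed endothelial and mural markers were 624 to 830 CPM in GFP-Mkrn3 IPs and 599 to 618 in GFP-Mkrn3 inputs, and 733 to 771 in GFP IPs and 612 to 651 in GFP inputs. Of 4 tested astrocyte, oligodendrocyte and Schwann markers 1 was higher with GFP, where DESeq2 called 0. None of the 4 was called with GFP-Mkrn3 or beyond GFP. No call fell on the 2 tested immune markers in these comparisons. Over the RIP libraries the astrocyte, oligodendrocyte and Schwann list summed to 15.5 to 24.0 CPM and the immune list to 8.99 to 22.7. The part of these cell types in the result was not tested.

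Lists of genes that act on collagens and laminins were read beside them, against the shares of all genes called, which were 13.9% higher and 12.8% lower with GFP-Mkrn3, 25.1% and 25.2% with GFP, and 13.2% and 11.1% beyond GFP. The lists are small, so their shares are coarse. Of 14 tested collagen-modifying enzymes and chaperones 2 were higher and 2 lower in the GFP-Mkrn3 IP, with a median ratio of 0.09, and 7 were higher and 1 lower in the GFP IP, with a median of 0.19. P4ha2, a prolyl hydroxylase, had a GFP ratio of 0.72, and the lysyl hydroxylases Plod3 and Plod2 0.61 and 0.54. Ppib, a prolyl isomerase of the collagen machinery, was lower in both IPs (−0.46 with GFP-Mkrn3, −1.27 with GFP). For the enrichment beyond GFP 2 were higher, among them Ppib (0.80), and 4 lower, among them Plod2 (−0.74) and Mia3 (−0.64), which helps load procollagen into transport carriers. Of 8 tested procollagen proteinases and crosslinking enzymes 3 were higher and 1 lower with GFP-Mkrn3, and 6 higher and 1 lower with GFP. Beyond GFP edgeR called none of them, with a median of −0.06 and 2 at an unadjusted p under 0.05, and DESeq2 called 2 lower. Adamts14, which trims procollagen, had a GFP ratio of 1.10, Pcolce2 −0.69, the lysyl oxidase Loxl2 0.60 and the peroxidase Pxdn, which crosslinks type IV collagen, 0.57.

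Receptors of these proteins and their basement membrane partners were read the same way. Of 10 tested receptors 3 were higher and none lower in the GFP-Mkrn3 IP, and 7 higher and 1 lower in the GFP IP. Beyond GFP 5 were lower and none higher, with a median of −0.45. Itga1 had −0.79, Itgb1, the beta subunit common to collagen and laminin integrins, −0.79 and Ddr2, a collagen receptor kinase, −0.78. Of 13 tested partners 5 were higher and 2 lower with GFP-Mkrn3, 6 higher and 2 lower with GFP, and 5 lower and none higher beyond GFP, with a median of −0.22. Nid1, which links laminin to type IV collagen, had ratios of 0.41 with GFP-Mkrn3 and 0.97 with GFP, a difference of −0.55. Fras1, a basement membrane adhesion protein, had a difference of −0.67. Of 6 tested matrix metalloproteinases and inhibitors 1 was higher and 2 lower with GFP-Mkrn3. Timp1, a metalloproteinase inhibitor, averaged 1.17 CPM in GFP-Mkrn3 IPs and 0.288 in GFP-Mkrn3 inputs (1.95, adjusted p = 0.0302), and DESeq2 called none of the list higher. Timp3 had a ratio of −0.77 there and Timp2 −0.22. With GFP edgeR and DESeq2 called 0 of this list, with 1 at an unadjusted p under 0.05, and beyond GFP both called 0, with 0 at that level.

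Scaling by library size alone, which moved the median enrichment beyond GFP of all genes to 0.233, left 3 of the 8 genes lower, Col6a1, Col8a1 and Lamc1. These 3 and, among fits that each left out a library, Col4a1 and Col4a5 kept their calls beyond GFP. Without GFP IP library 1 the calls of Lamb2, Col4a6 and Col5a1 were lost and 5 remained. Col4a6 lost its call also without GFP input library 3 or GFP-Mkrn3 input library 2, and Col5a1 without GFP input library 2 or 3 or any GFP-Mkrn3 input library. Of the GFP-Mkrn3 ratios, those of Col6a1 and Col20a1 lost their calls without GFP-Mkrn3 input library 1 or 2 or GFP-Mkrn3 IP library 2, and that of Col4a6 without GFP-Mkrn3 input library 1, where the count was 4 in place of 7. Of the GFP ratios, Lama5 lost its call without GFP IP library 1 or 2 or GFP input library 1 or 2. The Lama5 call was also lost with library size scaling and with no filter on low counts (adjusted p up to 0.153). Col11a2 lost its call without GFP IP library 1 or 3 or GFP input library 2 or 3. Col6a3 lost its call without GFP IP library 1 or GFP input library 1 or 3, and Col9a3 without GFP IP library 2.

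The lines were compared in the fractionation experiment to see what differs where GFP-Mkrn3 is labelled as stably present. In total RNA 2 of 9 tested genes were higher in Mkrn3ox than in wt, and none lower, beside 3.56% of all genes called higher, 3.83% lower and 7.39% in either direction. In cytoplasmic RNA 1 was higher and 2 lower, beside 4.31% of all genes called higher, 6.14% lower and 10.5% in either direction. With 9 genes tested, these counts give only a coarse share. The mitochondrial row mt-Nd6 also differed with the line. It took 8.79 to 9.43% of the counts in Mkrn3ox total RNA and 13.9 to 16.0% in wt total RNA. In the cytoplasm it took 9.80 to 12.1% in Mkrn3ox and 18.6 to 23.2% in wt. In the RIP experiment it took only 0.120 to 0.174% in GFP inputs and 0.172 to 0.254% in GFP-Mkrn3 inputs. Its share was 0.0388 to 0.0580% in GFP IPs and 0.0125 to 0.0334% in GFP-Mkrn3 IPs. The cause of this gap in the mt-Nd6 row was not tested. With that row left out of the fit, the same 2 and 3 genes were called.

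Col8a1 (chromosome 16, 57624256 to 57754737) was higher in both RNA fractions of Mkrn3ox. It had 154, 120 and 170 CPM in Mkrn3ox total RNA, against 0, 23.1 and 8.04 in wt total RNA. In the cytoplasm it had 99.8, 48.4 and 96.2 CPM in Mkrn3ox, against 2.59, 6.37 and 8.20 in wt. The lines did not overlap in either fraction. The counts behind these levels were 84, 65 and 102 in Mkrn3ox against 0, 14 and 6 in wt for total RNA, and 40, 19 and 46 against 1, 3 and 3 for cytoplasmic RNA. The log2 differences were 3.79 in total RNA (SE 0.607, adjusted p = 0.000305) and 3.78 in the cytoplasm (SE 0.708, adjusted p = 0.00114).

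Col1a1 was higher in Mkrn3ox total RNA, with 45.7, 20.3 and 91.5 CPM against 5.40, 3.29 and 9.38 in wt total RNA. The log2 difference was 3.05 (SE 0.831, adjusted p = 0.0262), and the call was lost in 5 of 6 fits that each left out a library, with the exception of the fit without Mkrn3ox total library 2 (adjusted p up to 0.224). In the cytoplasm it had 22.5, 28 and 29.3 CPM in Mkrn3ox and 0, 19.1 and 2.73 in wt (1.75, not called). Col1a2, its type I partner, was lower in Mkrn3ox cytoplasm. It had 269, 262 and 341 CPM in Mkrn3ox cytoplasm, against 448, 544 and 432 in wt cytoplasm, without overlap (−0.71, SE 0.211, adjusted p = 0.0346). The call was lost without Mkrn3ox cytoplasm library 1 or 2 or wt cytoplasm library 1 or 2. In total RNA its groups overlapped, with 457, 475 and 424 CPM in Mkrn3ox and 517, 357 and 342 in wt.

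Lamc1 was lower in Mkrn3ox cytoplasm, with 2.49, 25.4 and 14.6 CPM against 72.4, 59.5 and 84.8 in wt cytoplasm (−2.33, SE 0.605, adjusted p = 0.0153). In total RNA it had 21.9, 18.4 and 49.9 CPM in Mkrn3ox and 77.5, 88.9 and 37.5 in wt, which overlap (−1.16, not called). Without Mkrn3ox cytoplasm library 1 the cytoplasmic value of Lamc1 had an adjusted p of 0.0683, and only Col8a1 was then called among the 9 genes. The calls of Col8a1 held in every setting tried.

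**Figure D3:**
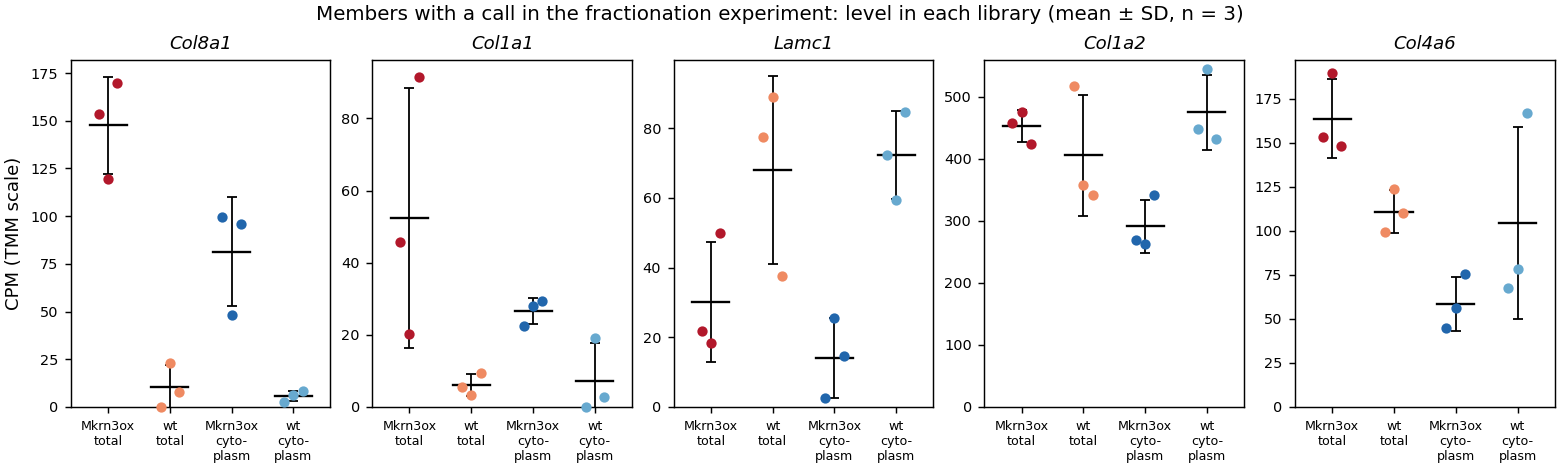
Level in CPM (y axis) in each fractionation library for the 5 genes with a call in that experiment; bars give mean ± SD, n = 3. Col8a1 lies at 120 to 170 CPM in Mkrn3ox total RNA and at 0 to 23.1 in wt total RNA.

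The cytoplasm was set against total RNA within each line. In Mkrn3ox 1 of 9 genes was lower in the cytoplasm, Col4a6, beside 3.76% of all genes called lower, 0.775% higher and 4.53% in either direction. Col4a6 had 44.9, 56.0 and 75.3 CPM in Mkrn3ox cytoplasm, against 154, 190 and 148 in Mkrn3ox total RNA, without overlap (−1.47, SE 0.358, adjusted p = 0.0183), and lost its call without Mkrn3ox cytoplasm library 1 or 2 or Mkrn3ox total library 2. In wt cytoplasm it had 67.3, 78.6 and 167 CPM, against 99.1, 124 and 110 in wt total RNA. Col4a5, its neighbour, was not called, with 47.4, 28 and 33.4 CPM in Mkrn3ox cytoplasm, against 71.3, 51.6 and 41.6 in Mkrn3ox total RNA, and 67.3, 59.5 and 60.2 in wt cytoplasm, against 43.2, 84.0 and 41.5 in wt total RNA. Col4a4, Col5a1 and Lamb1 were not called in any fractionation comparison either. In wt none of the 9 genes was called by edgeR, beside 3.78% of all genes called. DESeq2 called 0 of them, and 0 had an unadjusted p under 0.05. The difference between the lines in the ratio of cytoplasm to total gave 0 calls by edgeR and 0 by DESeq2, with 3 genes (Col1a2, Col4a6 and Col5a1) at an unadjusted p under 0.05, beside 0.219% of all genes called, 0.0795% higher and 0.139% lower.

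Partners of the basement membrane also differed between the lines. In total RNA 3 of 8 tested were lower in Mkrn3ox and in the cytoplasm 4 of 8, and none was higher, beside 3.83% and 6.14% of all genes called lower. Fras1 averaged 95.2 CPM in Mkrn3ox total RNA and 337 in wt total RNA (−1.82), and 84.4 in Mkrn3ox cytoplasm and 526 in wt cytoplasm (−2.65). Npnt, an integrin ligand, had log2 differences of −2.13 for total and −2.85 for cytoplasmic RNA, and Nid2, a relative of Nid1, −3.29 and −4.56. The Nid2 values rest on few counts. In total RNA Mkrn3ox held 5 and wt 58 (SE 0.981, adjusted p = 0.0431). In the cytoplasm Mkrn3ox held 1 and wt 30 (SE 1.23, adjusted p = 0.0192). Sparc, a collagen-binding matrix protein, was lower in the cytoplasm (−0.95). Itgb1 was lower by the same comparison in both fractions (−0.86 for total and −1.82 for cytoplasmic RNA), the only call among 4 tested receptors, and was lower in the cytoplasm than in total RNA of Mkrn3ox (−1.04). Of 3 tested proteinases and crosslinking enzymes, Loxl3, a lysyl oxidase, was lower in Mkrn3ox cytoplasm (−1.02). Of 2 tested metalloproteinases and inhibitors, Timp4, a metalloproteinase inhibitor, was called lower in Mkrn3ox total RNA, where it averaged 0.554 CPM, against 107 in wt total RNA. In the cytoplasm it averaged 7.55 CPM in Mkrn3ox and 1.57 in wt, not called (2.01). The line difference in its ratio of cytoplasm to total was called higher (adjusted p = 0.00454). Loxl3 held 97 to 300 counts per fractionation group but 1 to 16 per RIP group, although the RIP libraries were deeper. Timp4 held 199 counts in wt total RNA and 3 to 7 per RIP group. The cause of these gaps between the experiments was not tested.

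Marker genes differed between the lines as well. Uchl1, a neuronal ubiquitin hydrolase, averaged 84.0 CPM in Mkrn3ox total RNA and 2.54 in wt total RNA (4.88, adjusted p = 4.02e-05). Acta2 averaged 2.46 CPM in Mkrn3ox total RNA and 85.6 in wt total RNA (−5.03, adjusted p = 0.000799), where its SD was 62.7 CPM. In the cytoplasm Acta2 averaged 8.15 CPM in Mkrn3ox and 46.2 in wt, a smaller difference that was also called (−2.50). The summed endothelial and mural markers were 1.66 to 12.9 CPM in Mkrn3ox total RNA and 32.4 to 165 in wt total RNA, and 4.99 to 17.8 CPM in Mkrn3ox cytoplasm and 31.0 to 65.6 in wt cytoplasm. Most of the wt sums was Acta2. In total RNA, Pecam1, Cdh5, Tek, Emcn, Cldn5, Rgs5 and Cspg4 were at 0 in both groups. Kdr averaged 1.77 CPM in Mkrn3ox and 2.75 in wt there, while Myh11 went the other way, with 2.45 and 0.549. The summed GT1-7 and neuron markers were 238 to 343 CPM in Mkrn3ox total RNA and 115 to 150 in wt total RNA. Of the 4 tested in total RNA, Uchl1 was the only one called. In Mkrn3ox and wt total RNA, Gnrh1 averaged 90.0 and 77.3 CPM, Map2 65.4 and 33.1 and Eno2 27.2 and 19.4. The summed fibroblast markers were 14.6 to 58.9 CPM in Mkrn3ox total RNA and 6.59 to 28.1 in wt total RNA. Lum, Dpt, Thy1, Fap and Tcf21 were at 0 in both groups there. In the cytoplasm the order was reversed, with a sum of 0 to 6.27 CPM in Mkrn3ox and 12.7 to 18.1 in wt. In total RNA Pi16 averaged 20.4 CPM in Mkrn3ox and 6.82 in wt, while Pdgfra averaged 6.07 and 9.27. None of the 10 fibroblast markers passed the filter on low counts in this experiment. Nor did any of the 10 astrocyte, oligodendrocyte and Schwann markers. Of the 8 immune markers 1 passed and was not called between the lines. Csf1r, an immune marker, averaged 249 to 371 CPM in the fractionation groups and 7.52 to 14.5 in the RIP groups, a gap whose cause was not tested. In bulk RNA fewer cells of a type and less RNA per cell cannot be told apart, and the part of these markers in the line differences was not tested.

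The tables gave very different pictures of single genes, although both came from the same cell line. Lamb2 held 118655 counts over the 12 RIP libraries and 68 over the 12 fractionation libraries, and Col6a1 37729 and 4. As a share of all counts Lamb2 had 1124 CPM, here without TMM scaling, over the RIP libraries and 10.8 over the fractionation libraries. In the other direction Lamb1 had 7 RIP counts and 148 fractionation counts, Col10a1 5 and 39, and Col4a3 0 and 39. Lamb1 lies 1918 bases from Dld on the opposite strand, and Col10a1 overlaps Nt5dc1 on the opposite strand. Col4a3 overlaps Col4a4. Among genes named above with values, Lamb2 has Usp19 77 bases away on its own strand, Lama5 has Adrm1 90 bases away, Lama3 has Ttc39c 90 bases away, Col20a1 has Arfgap1 797 bases away and Col11a2 has Rxrb 516 bases away. Col9a3 overlaps Tcfl5 and lies 2265 bases from Ogfr. Col18a1 lies 1746 bases from Slc19a1, Col4a6 1209 bases from Atg4a, Lamb3 2468 bases from Camk1g and Col5a3 3377 bases from Rdh8. Further neighbours within 5 kb, some with few or no counts, are not listed. No source used here gives the strand setting of the counting. Reads of such neighbours could therefore stand in the rows of these genes, and a level is that of the named row. The tables were normalised separately and their levels were not tested against each other, and the cause of the difference was not tested. For Col8a1 no neighbouring gene with a count row was found within 5 kb, and the strand of its reads was not tested.

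**Figure D4:**
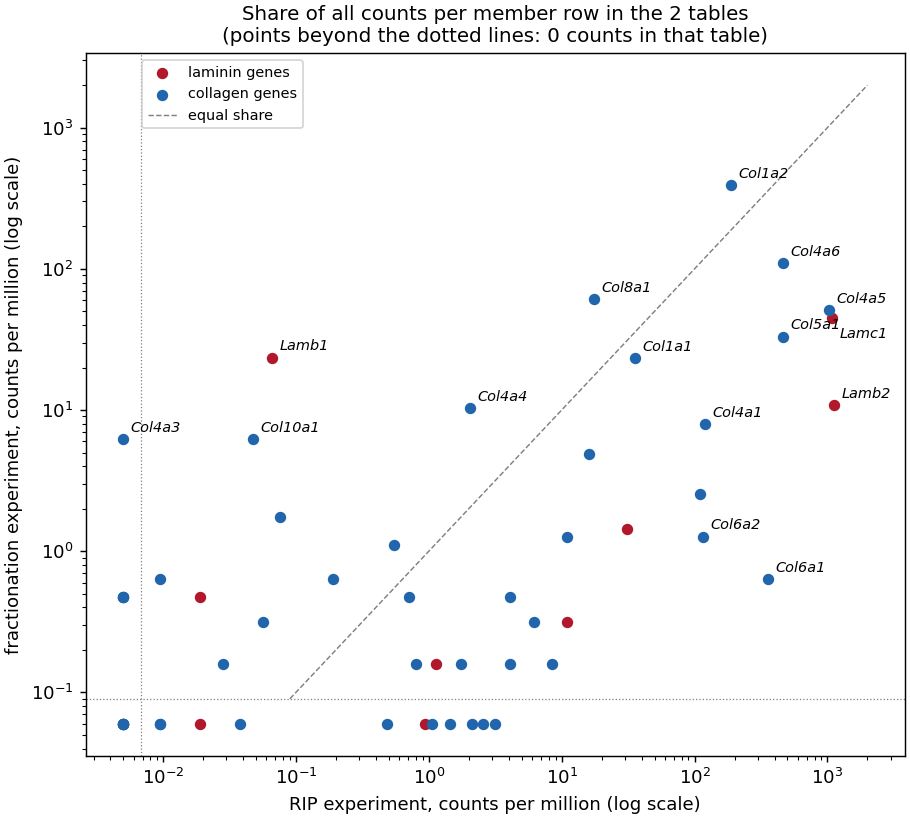
CPM without TMM scaling for 54 of the 55 genes in the RIP table (x axis, log scale) and the fractionation table (y axis, log scale), red for laminins and blue for collagens; points beyond the dotted lines had 0 counts. Lamb2 lies at 1124 CPM on the x axis and 10.8 on the y axis, and Lamb1 stands above the line of equal share.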

How the data were processed

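Per the submitters' processing notes, reads were handled with cutadapt, STAR and HTSeq on mm10. Not given in the sources used here were tool versions, gene annotation, strand setting and whether molecular identifiers were used. The deposited files hold raw counts per gene for 24 libraries, with no normalization by the authors found in the values.

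Groups came from the labels. Each experiment was fitted on its own with edgeR 4.0.16 in R 4.3.3, with TMM scaling, filterByExpr by group, group means and the two-sided quasi-likelihood test, and Benjamini-Hochberg adjustment over the 5033 fractionation and 13052 RIP genes tested. A call is an adjusted p under 0.05 in 1 of 9 comparisons. Values are given for called members and for uncalled ones averaging 20 counts or more, and for up to 4 called genes of each list per comparison. The members and lists were chosen with earlier results of these data known. The fit was checked on simulated counts carrying known fold changes.

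Alternatives were other scalings, DESeq2 (1.42.0), other count filters, the compared groups alone, the replicate number as a block, and leaving out each library. Upstream windows and positions came from RefSeq tables of GRCm38.p6; 40 of the 55 members matched a promoter entry. Each SE comes from the quasi-likelihood fit, which takes in counting error and the spread among these libraries. Figures used matplotlib 3.10.9, with pandas 2.3.3 in Python 3.11.15. Of the members, 1 is counted in the totals but not reported by name or drawn here.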

Additional observations from a re-analysis of the deposited data

Results flagged for a closer look

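For 8 members the ratio of IP to input differed between GFP-Mkrn3 and GFP by the test of that difference itself, and each was lower with GFP-Mkrn3. On the log2 scale the differences were −0.97 for Col8a1, −0.75 for Col6a1, −0.69 for Lamc1, −0.53 for Lamb2, −0.52 for Col4a5, −0.51 for Col4a1, −0.45 for Col4a6 and −0.44 for Col5a1. In groups of 3 libraries no single library was tested for standing apart.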

How the results depend on the processing

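Of 38 called member results, 538 alternatives were computed: 486 kept the call, 52 lost it and 0 changed sign. For the enrichment beyond GFP, library size scaling gave 3 calls in place of 8, and leaving out single libraries 5 to 10. That scaling moved the median of all genes to 0.233, against 0.0386. Leave-outs gave 4 to 10 calls for GFP-Mkrn3 IP against input, 14 to 16 for GFP, 1 to 3 for the cytoplasmic and 1 to 2 for the total RNA line difference, and 0 to 1 for cytoplasm against total in Mkrn3ox. The compared groups alone gave 2 calls for the last of these, and a mean of at least 20 counts gave 1 for the total RNA line difference. The cytoplasmic call of Col1a2 was also lost with library size scaling, no filter and the replicate block. With the replicate block the counts were 8 beyond GFP, 7 with GFP-Mkrn3, 17 with GFP, 2 in total RNA, 2 in cytoplasmic RNA, 1 for cytoplasm against total in Mkrn3ox and 0 in the other comparisons. Same-numbered libraries did not deviate together in every pair (r between −0.187 and 0.316), so the numbers were not taken as pairs. The compared groups alone gave no value for the 2 comparisons that use all 4 groups. The causes were not tested. Only 9 members passed the filter in the fractionation experiment, so small changes there may not have been detectable. Its libraries are shallow, and some members also held a smaller share of its counts. Lamb2 had 10.8 CPM without TMM scaling there and 1124 over the RIP libraries. The parts of depth and share were not tested.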
